A study of Mus musculus with 4 samples.

Results

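*Pygo2* encodes Pygopus 2, a nuclear co-activator of Wnt signalling, and the 4 genes described here are *Pygo2*, its paralog *Pygo1*, and *Bcl9* and *Bcl9l*, which encode the adaptors that join a Pygopus protein to beta-catenin. They were taken by symbol from the 55450 genes of the count file, in which each of the 4 names occurs once. *Pygo2* was chosen because its level differed between loaded and unloaded cells, so its values are a description without a test, whereas the other 3 genes were chosen for the binding of their products. The question was whether the higher *Pygo2* level after loading was shared by *Pygo1* and by the BCL9 adaptors.

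RNA was sequenced from MLO-Y4 cells, a mouse osteocyte-like line from bone, with 2 unloaded and 2 loaded libraries. The cells carry the limits of a single immortalized line. The loaded cells grew to 60% confluency on collagen-coated plates with a flexible silicone base and were then stretched equally in all directions for 12 h, with 20% strain at a rate of 0.5 Hz. The unloaded cells reached the same confluency on ordinary culture plates and stood in the incubator of the loading device for 12 h without stretch, so that loading and the change of plate cannot be told apart. The records do not say whether the replicates came from separate cultures, and p-values therefore measure only the spread between these libraries, which may be technical.

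In the nucleus, beta-catenin binds transcription factors of the TCF/LEF family at Wnt-responsive genes. BCL9 and BCL9L hold beta-catenin through a conserved segment named homology domain 2 and hold a Pygopus protein through homology domain 1. The Pygopus side of this contact is its PHD finger, a zinc-binding fold that at the same time grips the tail of histone H3 methylated at lysine 4, a mark of active promoters. In mouse tissues *Pygo2* is widely expressed and *Pygo1* is more restricted, and Wnt/beta-catenin signalling in osteocytes is known for its part in the response of bone to load.

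The paralogs were told apart by their sequences, which are shown here at the contacts that define the complex. The longest run of identical bases in the transcripts of *Pygo2* and *Pygo1* was 14 bp, gccattctgtgtga, in coding exon 3 of *Pygo2* (chr3:89433320-89433333, plus strand, GRCm38) and coding exon 3 of *Pygo1* (chr9:72945592-72945605, plus strand), within the part that encodes the PHD finger. Aligned without gaps and with 40 bases on either side, the paralogs shared 70 of 94 bases, or 74.5%. Capitals mark the shared bases in both lines.
Pygo2 (chr3:89433280-89433373): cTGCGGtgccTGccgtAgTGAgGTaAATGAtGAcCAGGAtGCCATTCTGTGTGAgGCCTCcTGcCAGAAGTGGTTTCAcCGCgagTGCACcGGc
Pygo1 (chr9:72945552-72945645): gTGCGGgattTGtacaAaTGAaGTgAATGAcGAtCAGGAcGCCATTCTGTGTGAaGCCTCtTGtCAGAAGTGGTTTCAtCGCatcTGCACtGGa

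For the adaptors the longest run was 20 bp, gagcagctggagcaccggga, in coding exon 7 of *Bcl9l* (chr9:44505950-44505969, plus strand) and coding exon 8 of *Bcl9* (chr3:97210298-97210317, minus strand). It lies in the part that encodes homology domain 2, the beta-catenin contact. Over 100 bases around it, 67 were shared, or 67.0%, again in capitals.
Bcl9l (chr9:44505910-44506009): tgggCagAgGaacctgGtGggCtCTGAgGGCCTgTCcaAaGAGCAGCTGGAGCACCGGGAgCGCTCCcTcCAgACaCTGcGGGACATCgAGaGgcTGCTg
Bcl9 (chr3:97210258-97210357): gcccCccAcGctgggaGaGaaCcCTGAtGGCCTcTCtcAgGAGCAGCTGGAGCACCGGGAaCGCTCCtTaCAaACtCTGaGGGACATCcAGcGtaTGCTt

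No window of 50 bases in the transcripts of *Pygo2* (0 of 3675 windows) or *Bcl9* (0 of 8432 windows) occurred in a transcript of any other gene. For *Pygo1*, 16 of 7845 windows were shared with other genes (0.204%). For *Bcl9l*, 676 of 7990 windows (8.46%) were shared with *Cxcr5* and *Gm47205*, which are annotated on the opposite strand across its exons. The strand setting of the counting is not given in the sources used here, so reads from *Bcl9l* and from these antisense genes may not be separable. *Cxcr5* held 13 counts over the 4 libraries, and *Gm47205* held 56 and 135 counts in unloaded and 144 and 105 counts in loaded cells, against 2318 counts or more of *Bcl9l* in each library.

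Total counts ranged from 28941994 to 32185693 per library. Levels are given as counts per 1000000 counts of a library (CPM) after scaling by the trimmed mean of M-values (TMM), with factors between 0.983 and 1.01. A gene entered the statistical test if it passed edgeR's filter on low counts, as 16269 genes did, among them 3 of the 4 genes described here. Loaded and unloaded cells were compared by the quasi-likelihood test of edgeR. P-values were adjusted across all genes tested (Benjamini-Hochberg), with a threshold of 0.01 for the adjusted p. At this threshold 0.0983% of all tested genes were called. Of 7 osteocyte markers, 4 passed the filter, with summed levels of 687 and 689 CPM in unloaded and 847 and 769 CPM in loaded cells, carried by *Gja1*, *Pdpn* and *Phex*. *Dmp1* had 12 to 14 counts per library, and *Sost* had 4 counts in loaded replicate 1 and 0 elsewhere. *Fgf23* had 4 and 9 counts in unloaded and 0 in loaded cells, and *Mepe* had 0 in all 4 libraries. *Dmp1*, *Sost*, *Fgf23* and *Mepe* were thus absent or close to it, whereas *Phex* had 1270 to 1662 counts per library. Markers of other cell types, 13 genes of which 5 were at 0 in all libraries, summed to 9.43 and 7.06 CPM in unloaded and 6.01 and 4.16 CPM in loaded cells. The osteocyte sum was thus higher and the other sum lower in both loaded libraries, and their part in the results was not tested.

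*Pygo2* (ENSMUSG00000047824.13, chr3:89430214-89435128, plus strand) had 761 and 896 counts without load and 3464 and 3317 counts with load. These counts were 26.2 and 29.5 CPM without load and 107 and 111 CPM with load. The groups were far apart and the replicates close together. The mean level was 27.9 ± 2.38 CPM (SD, n = 2) in unloaded and 109 ± 2.78 CPM (SD, n = 2) under load. This is 3.92-fold, or 1.97 on the log2 scale (SE 0.103). Both loaded libraries lay above both unloaded libraries, which held for 22.1% of all tested genes, and nothing is read from it for a gene selected on this difference. In bulk RNA, a change in the share of cells that express a gene and a change in its RNA per cell cannot be told apart.

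The *Pygo2* replicates differed by 0.17 in unloaded and 0.05 in loaded cells on the log2 scale. Among the 9683 genes with a mean of at least 10 CPM, the median absolute log2 difference between replicates was 0.0999 in unloaded and 0.112 in loaded cells, so that *Pygo2* lay somewhat above it in the former and below it in the latter. Ordered by log2 fold change, *Pygo2* stood at rank 2 of these 9683 genes, after *Acat3*, and at rank 19 of the 13321 genes with a mean of at least 1 CPM. A gap as wide as that of *Pygo2* between the groups was also seen between the replicates of a group, in 20 of the 9683 genes for unloaded and 14 for loaded cells.

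*Pygo1* (ENSMUSG00000034910.5, chr9:72925645-72952181, plus strand), the paralog with the same fold and partners, had 5 counts in unloaded replicate 1 and 0 counts in the other 3 libraries. It was thus at 0.172 CPM in a single unloaded library, and a count of 0 allows up to 0.0998, 0.0932 and 0.0989 CPM in unloaded replicate 2 and loaded replicates 1 and 2, when 3 counts are taken as the limit and TMM scaling is left aside. *Pygo1* did not pass the filter and was not tested, and no fold change is given. With 0 counts in both loaded libraries, no *Pygo1* level above these limits was seen with load. A difference below the limits was not detectable at this depth, and the limits cover counting error only.

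**Figure D1:**
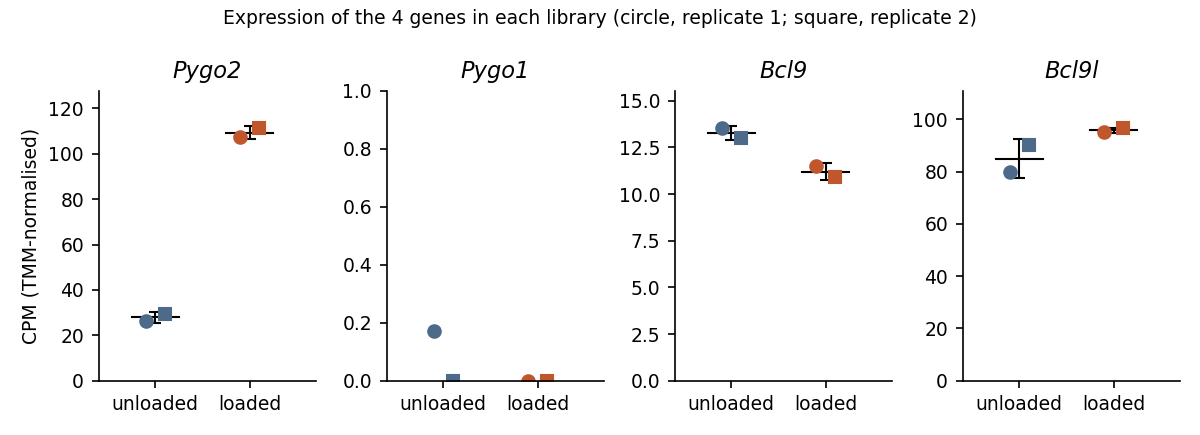
TMM-normalized CPM of *Pygo2*, *Pygo1*, *Bcl9* and *Bcl9l* in each unloaded and loaded library, with an axis from 0 that is scaled for each gene. Circles are replicate 1 and squares replicate 2, and horizontal lines with bars are the mean ± SD (n = 2), not drawn for *Pygo1*. *Pygo2* sits at 26.2 to 29.5 CPM without load and 107 to 111 CPM with load, while *Bcl9* and *Bcl9l* stay within 10.9 to 13.5 and 79.7 to 96.5 CPM.

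*Bcl9* (ENSMUSG00000038256.15, chr3:97203662-97297917, minus strand), the adaptor first found at a translocation breakpoint in B-cell leukaemia, had 393 and 394 counts in unloaded and 372 and 325 counts in loaded libraries. Its level was 13.5 and 13.0 CPM without load and 11.5 and 10.9 CPM with load. Both loaded libraries were slightly below both unloaded libraries, as they were for 24.5% of all tested genes. The means were 13.3 ± 0.375 and 11.2 ± 0.441 CPM (SD, n = 2 each), a log2 fold change of -0.24 (SE 0.142) that did not pass the threshold (edgeR adjusted p = 0.502; DESeq2 adjusted p = 0.800).

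*Bcl9l* (ENSMUSG00000063382.6, chr9:44482825-44511896, plus strand), the second adaptor, had 2318 and 2737 counts in unloaded and 3074 and 2880 counts in loaded libraries. The corresponding levels were 79.7 and 90.2 CPM, and 95.2 and 96.5 CPM. The loaded libraries were again on one side, above both unloaded libraries, with 22.1% of all tested genes in the same arrangement. The gap from 90.2 to 95.2 CPM between the groups was smaller than the gap between the unloaded replicates. Mean levels were 85.0 ± 7.42 and 95.9 ± 0.961 CPM (SD, n = 2 each), and the log2 fold change of 0.17 (SE 0.092) did not pass the threshold (edgeR adjusted p = 0.458; DESeq2 adjusted p = 0.546).

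Of the 2 adaptors, 0 were called by edgeR, against 0.0983% of all tested genes. An unadjusted p under 0.05 was found for 0 of them, a limit met by 14.3% of all tested genes. DESeq2 called 2.91% of the 12484 genes to which it gave an adjusted p, and neither adaptor. At such shares, 0 of 2 says little about the adaptors. The 95% confidence interval of the fold change, from the edgeR fit, ran from 0.666 to 1.07 for *Bcl9* and from 0.966 to 1.32 for *Bcl9l*. Both upper bounds lay below the 3.92-fold difference of *Pygo2*, whereas changes of the adaptors within these intervals remain compatible with the data. The intervals are not limits of detection, and the smallest change that could be called with 2 libraries per group was not determined. The higher *Pygo2* level was thus not accompanied by a difference of like size in either adaptor. *Pygo1* had 0 counts in both loaded libraries and could not be tested.

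To set the genes against each other, CPM were divided by the length of the merged exons, which was 3631 bp for *Pygo2*, 7916 bp for *Pygo1*, 8446 bp for *Bcl9* and 7998 bp for *Bcl9l*. In unloaded cells *Bcl9l* had the highest level, 9.97 and 11.3 CPM per kb, followed by *Pygo2* with 7.21 and 8.14 CPM per kb. *Bcl9* came next with 1.60 and 1.54 CPM per kb, and *Pygo1* was last with 0.0217 and 0 CPM per kb. In loaded cells *Pygo2* led with 29.5 and 30.6 CPM per kb, ahead of *Bcl9l* with 11.9 and 12.1 and *Bcl9* with 1.36 and 1.29 CPM per kb. *Pygo1* was at 0 in both loaded libraries. The libraries of neighbouring genes in these orders did not overlap, so the order of *Pygo2* and *Bcl9l* was the opposite in the 2 groups.

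The ratio of *Pygo2* to *Bcl9l* in CPM per kb was 0.723 and 0.721 in unloaded and 2.48 and 2.54 in loaded libraries. Against the sum of both adaptors it was 0.623 and 0.635, and 2.23 and 2.29. Transcripts of the reader were therefore fewer than those of the adaptors without load and more with load, on a scale that counts every annotated exon as used. The ratio of *Bcl9l* to *Bcl9* was 6.23 and 7.34 without load and 8.73 and 9.36 with load, so that *Bcl9l* was the main adaptor transcript in each library. The ratios that hold *Pygo2* carry its selection, and the shift in the adaptor ratio was not tested.

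**Figure D2:**
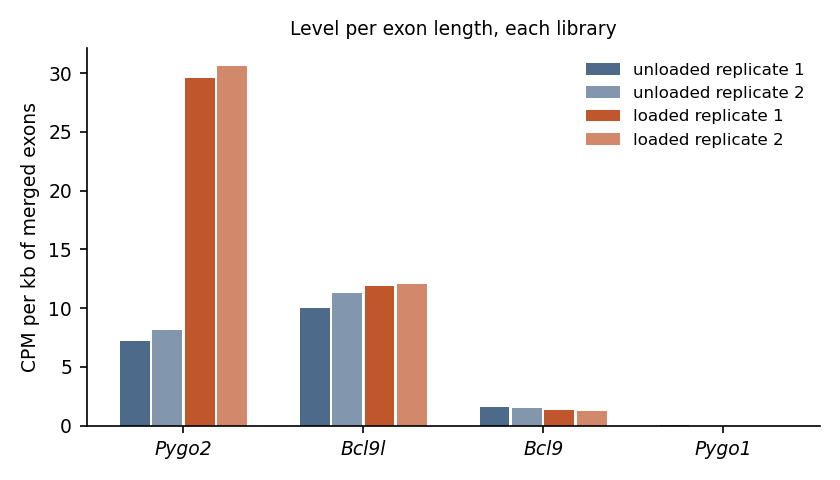
CPM per kb of merged exons for *Pygo2*, *Bcl9l*, *Bcl9* and *Pygo1* in each library, as bars from 0 without error bars (blue, unloaded; orange, loaded; the paler bar is replicate 2). *Pygo2* stands below *Bcl9l* in both unloaded libraries and above it in both loaded libraries, while *Bcl9* stays under 2 CPM per kb and *Pygo1* is at or near 0.

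*Pygo2* lies in a dense stretch of chromosome 3, and its annotated start is 186 bp downstream of the end of *Shc1*, which encodes a signalling adaptor on the same strand. The sequence of this gap is shown because it is all that separates the transcripts of the neighbours, with the 10 CpG dinucleotides in capitals (RefSeq, GRCm38.p6, plus strand).
Gap between Shc1 and Pygo2 (chr3:89430028-89430213): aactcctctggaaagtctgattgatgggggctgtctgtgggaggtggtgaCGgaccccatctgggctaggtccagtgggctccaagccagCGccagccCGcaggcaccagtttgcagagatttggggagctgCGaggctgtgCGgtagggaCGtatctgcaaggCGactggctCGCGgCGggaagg
Its GC content was 63.4%, compared with a median of 53.2% for the same slice of 27025 mouse promoter windows in the RefSeq table. Of the 4 genes, 3 had a window there and *Bcl9l* had none.

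The gap was searched for 8 motifs on both strands, with 0 matches for each. They were TGACNNNGC, the core of the antioxidant response element bound by NRF2 (in 8.16% of the promoter slices), TGANTCA for AP-1 (5.18%), CTTTGA for TCF/LEF (10.2%) and GGAATG for TEAD (9.43%). The others were CCGGAAG for ETS factors (6.22%), the CCAAT box (28.8%), the GC box GGGCGG (30.8%) and the cAMP response element TGACGTCA (1.54%). The absence of a match says only that these letters are not in this window. TGACNNNGC and TGANTCA can match the same bases.

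*Shc1* had 5777 and 6344 counts in unloaded and 6372 and 5790 counts in loaded libraries, or 199 and 209 CPM and 197 and 194 CPM. Its log2 fold change was -0.06 (edgeR adjusted p = 0.738). Summed over *Shc1* and *Pygo2*, the level was 225 and 239 CPM in unloaded and 305 CPM in both loaded libraries. The mean *Pygo2* level was 81.4 CPM higher with load and that of *Shc1* was lower by 8.24 CPM, so the sum differed by 73.1 CPM.

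On the other side, 1577 bp downstream, *Pbxip1* had 2093 and 2221 counts without load and 2814 and 2293 counts with load (log2 fold change 0.18, edgeR adjusted p = 0.476). Of 14 genes within 100 kb of *Pygo2*, 12 were tested and 0 passed an adjusted p of 0.01 or 0.05 in edgeR. Over all 16269 tested genes, 0.0983% passed 0.01, and 55 higher and 92 lower genes passed 0.05. At such shares, 0 of 12 says little about this locus. The log2 fold changes of the 12 neighbours ran from -2.40 to 0.38 with a median of 0.04. An unadjusted p under 0.05 was found for 2 of them, and for 14.3% of all tested genes. *Zbtb7b*, a zinc finger repressor gene, had 2808 and 3154 counts without load and 4374 and 3720 counts with load. Its log2 fold change was 0.38 (edgeR adjusted p = 0.134, DESeq2 adjusted p = 0.0114). *Lenep* was close to the floor with 16, 10, 4 and 1 counts in unloaded replicates 1 and 2 and loaded replicates 1 and 2 (edgeR adjusted p = 0.325). The remaining tested neighbours, *Pmvk* (0.08), *Cks1b* (-0.11), *Flad1* (0.13), *Gm15417* (0.23), *Dcst1* (0.15), *Adam15* (-0.05), *Efna4* (-0.07) and *4731419I09Rik* (0.00), had log2 fold changes near 0.

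**Figure D3:**
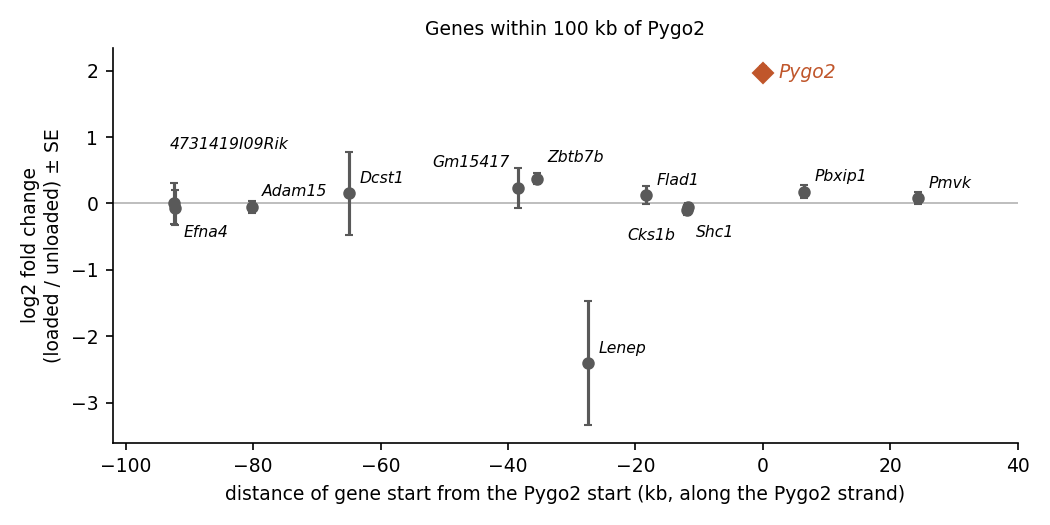
Log2 fold change (loaded over unloaded, ± SE of the edgeR fit) of *Pygo2* (diamond) and of the 12 tested genes within 100 kb, against the distance of each gene's start from that of *Pygo2* in kb. *Pygo2* is at 1.97, and the neighbours lie between -0.11 and 0.38 except *Lenep* at -2.40, which rests on 1 to 16 counts per library.

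Neighbours within 100 kb of the other genes were also compared. At an adjusted p under 0.01, edgeR called 0 of 6 tested neighbours of *Pygo1*, 0 of 1 of *Bcl9* (*Acp6*) and 0 of 8 of *Bcl9l*. An unadjusted p under 0.05 was found for 0 of these 15. Over all tested genes the shares were 0.0983% and 14.3%, so these counts say little about the loci.

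The 5 tested genes most like *Pygo2* were found by the Euclidean distance between profiles of log2 CPM, centred on each gene's mean, over the 4 libraries. They were *C730002L08Rik* (distance 0.261), *Flvcr1* (0.346), *Pram1* (0.375), *Pagr1b* (0.391) and *Gm9939* (0.464). *Flvcr1*, which encodes a heme and choline transporter, was the only one of them above 5 CPM, with 606 and 532 counts in unloaded and 2088 and 2041 counts in loaded libraries (20.8 and 17.5 CPM, then 64.7 and 68.4 CPM). The other 4 had at most 20 counts in any unloaded and 28 to 92 counts in the loaded libraries. *Bcl9l* was at a distance of 1.78 (rank 2978 of 16268) and *Bcl9* at 2.19 (rank 12701). Measured from a gene chosen for its group difference, such distances restate the gap in fold change and are no separate evidence on the adaptors. Before the log, 0.5 was added to each CPM value, which shrinks the group difference of genes with few counts in unloaded cells, such as these 4, and the measure is given as a description.

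The proteins that act with the complex were described through 6 lists of related genes. Of each list edgeR called 0 genes at an adjusted p under 0.01 and 0 at an adjusted p under 0.05. Over all 16269 tested genes, edgeR called 0.0983% at 0.01, and 55 higher and 92 lower genes at 0.05. Of the list genes DESeq2 called 1, *Ccn4*, at an adjusted p under 0.01, against 2.91% of the 12484 genes given an adjusted p. At such shares, counts of 0 or 1 say little about lists of this size. The share with an unadjusted p under 0.05 over all tested genes was 14.3%, and the median log2 fold change of all tested genes was -0.01, with 48.5% above 0.

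In the nuclear beta-catenin complex, 19 of 21 genes were tested, 11 had a positive and 8 a negative log2 fold change, the median was 0.01, and 2 genes had an unadjusted p under 0.05, both lower. *Ctnnb1*, which encodes beta-catenin, had 6562 and 10223 counts in unloaded and 9664 and 6627 counts in loaded libraries (log2 fold change -0.11, edgeR adjusted p = 0.871). Its replicates were thus farther apart than its groups. Of its DNA-binding partners, *Tcf7l2* had 1501 and 1841 counts without load and 1902 and 1845 counts with load (log2 fold change 0.10). *Tcf7* had 123 and 151 counts against 86 and 85 counts (log2 fold change -0.74, SE 0.243, edgeR adjusted p = 0.255). *Tcf7l1* and *Lef1* had at most 1 and 5 counts in any library and were not tested. *Tcf7l2* was therefore the most abundantly counted of the 4 TCF/LEF genes in every library.

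The Pygopus proteins are also held by the Ldb1 and Ssbp platform of the Wnt enhanceosome. *Ssbp2* had 674 and 723 counts in unloaded and 485 and 503 counts in loaded libraries (log2 fold change -0.56, SE 0.121, edgeR adjusted p = 0.129). For *Ldb1*, which encodes the LIM domain-binding scaffold, the log2 fold change was -0.05 (edgeR adjusted p = 0.889). The acetyltransferase gene *Crebbp* was at 0.18 (SE 0.0739, edgeR adjusted p = 0.349). None of these passed the threshold.

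Of 15 repressors of TCF and beta-catenin, 14 were in the file under the listed symbol and 13 were tested, with 7 positive and 6 negative log2 fold changes and a median of 0.01. An unadjusted p under 0.05 was found for 1 higher and 1 lower gene. The corepressor genes *Tle1* (0.29, SE 0.0954, edgeR adjusted p = 0.258) and *Tle2* (-0.63, SE 0.246, edgeR adjusted p = 0.326) differed in sign. *Nlk*, which encodes a kinase that acts on TCF proteins, was at 0.19 (edgeR adjusted p = 0.427).

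Of the beta-catenin destruction complex, 11 of 12 genes were tested, 8 positive and 3 negative, with a median of 0.10 and 1 gene at an unadjusted p under 0.05. That gene was *Gsk3b*, the kinase that marks beta-catenin for degradation, with 1597 and 1887 counts without load and 5422 and 2477 counts with load (log2 fold change 1.10, SE 0.307, edgeR adjusted p = 0.190). Its value rests mainly on loaded replicate 1. *Apc2* had 8 and 13 counts in unloaded and 28 and 26 counts in loaded libraries (log2 fold change 1.29, edgeR adjusted p = 0.381), and *Apc*, the scaffold, was at 0.31 (edgeR adjusted p = 0.442).

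The mark that the PHD finger of Pygopus reads is written by H3K4 methyltransferase complexes. All 15 listed genes were tested, 5 positive and 10 negative, with a median of -0.05, and 1 higher and 2 lower genes had an unadjusted p under 0.05. *Ncoa6*, a subunit of the Kmt2c and Kmt2d complexes, was at -0.32 (SE 0.0842, edgeR adjusted p = 0.172), *Setd1a* at 0.30 (SE 0.0985, edgeR adjusted p = 0.252) and *Kmt2a* at -0.21 (SE 0.075, edgeR adjusted p = 0.299). Among 13 other PHD finger readers of this mark, all tested, 6 were positive and 7 negative, with a median of -0.01 and 2 higher genes at an unadjusted p under 0.05. *Bptf*, of the NURF remodelling complex, was at 0.20 (edgeR adjusted p = 0.252), *Taf3*, of the general factor TFIID, at 0.22 (edgeR adjusted p = 0.436), and *Phf23* at 0.60 (edgeR adjusted p = 0.285), with 1270 and 1195 counts without and 2483 and 1464 counts with load. Loaded replicate 1 stood apart for *Phf23* too, a gene to which DESeq2 gave an adjusted p of 0.0283. Within the readers, *Pygo2* at 1.97 was thus well above the highest of the others, as a gene chosen for that value.

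Wnt/beta-catenin target genes were listed as genes on which the complex can act, and their dependence on it in these cells was not tested. Of 25 listed genes, 24 were in the file and 14 were tested, 8 positive and 6 negative. Their log2 fold changes had a median of 0.06, and 3 higher and 2 lower genes had an unadjusted p under 0.05. These were 35.7% of the tested targets, against 14.3% of all tested genes, and the share is a description. *Tcf7*, among the lower genes, was also counted in the nuclear beta-catenin complex. *Bmp4*, among the higher genes, was at 0.79 (edgeR adjusted p = 0.266). It had 2126 and 2325 counts in unloaded and 5424 and 2708 counts in loaded libraries, so its value rests mainly on loaded replicate 1. *Ccn4*, a matricellular gene first described as Wnt-induced, had 5631 and 5307 counts in unloaded and 7489 and 7620 counts in loaded libraries (log2 fold change 0.40, SE 0.0836), with an adjusted p of 0.120 in edgeR and 0.00139 in DESeq2. *Jag1*, a Notch ligand gene, was at 0.61 (SE 0.191, edgeR adjusted p = 0.235, DESeq2 adjusted p = 0.197). *Cldn1*, a tight junction gene, was at -0.46 (SE 0.105, edgeR adjusted p = 0.139, DESeq2 adjusted p = 0.0438). *Axin2* had 5 and 3 counts without load and 12 and 8 counts with load, too few for the filter, and *Nkd1*, *Notum*, *Sp5*, *Dkk1* and *Tnfrsf19* were at 0 in all 4 libraries. *Ccnd1* was at -0.01 and *Myc* at -0.05 on the log2 scale (edgeR adjusted p = 0.972 and 0.826).

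**Figure D4:**
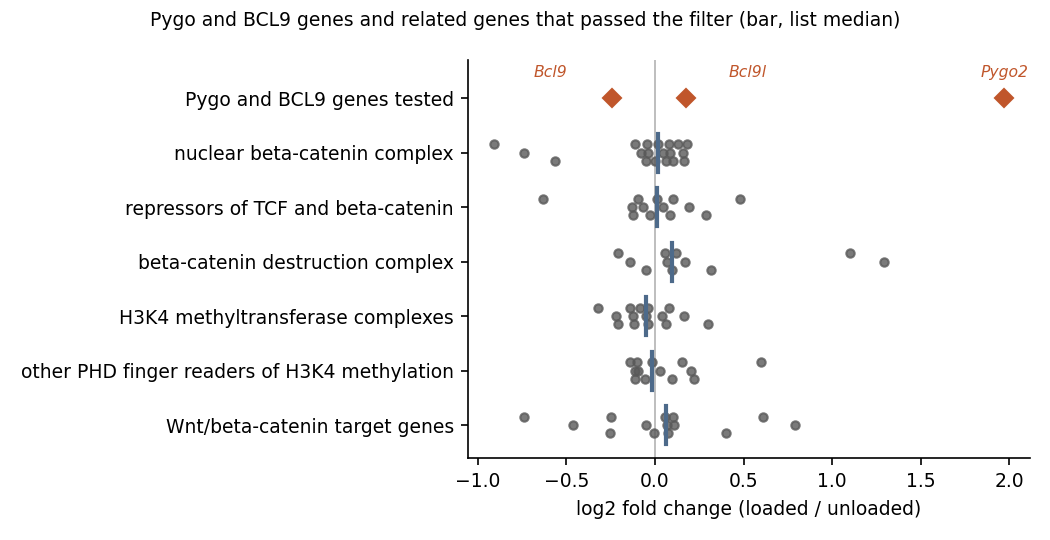
Log2 fold change (loaded over unloaded, edgeR fit) of *Pygo2*, *Bcl9* and *Bcl9l* (diamonds) and of each tested gene (circles) in 6 lists of related genes, with a bar at each list's median. Medians lie between -0.05 and 0.10, and the circles reach from -0.91 (*Tbl1xr1*) to 1.29 (*Apc2*). All lie below *Pygo2* at 1.97, a gene chosen for that value. *Tbl1xr1* had 1086 and 2519 counts in loaded replicates 1 and 2, and *Apc2* had 8 to 28 counts per library.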

How the data were processed

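The data are gene counts from RNA-seq of MLO-Y4 cells, 2 libraries unloaded and 2 loaded, grouped by their titles. Per the study's methods and the submitters' processing notes, ribosomal RNA was depleted, trimmed reads were mapped to mm10 with HISAT2 2.1.0, StringTie 1.3.5 assembled transcripts, and its prepDE script turned the coverage into whole numbers, so that a deposited count is derived from coverage rather than tallied read by read. The authors deposited these counts without normalization and used DESeq2 1.32.0. The annotation release, strand setting and read length are not given in the sources used here. All 55450 identifiers matched GENCODE M21 (GRCm38), which gave symbols, coordinates, exon lengths and transcript sequences, and promoter sequence came from RefSeq.

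Counts were filtered with filterByExpr (count minimum 10), TMM-normalized and tested with glmQLFit and glmQLFTest of edgeR 4.0.16 in R 4.3.3, using the study's threshold of 0.01. The SE of a log2 fold change was obtained as its absolute value over the square root of F, and 95% intervals use the t quantile of the fit. Profiles for likeness used log2(CPM + 0.5). Alternatives were DESeq2 1.42.0, limma-voom (limma 3.58.1), other factors, filters, a replicate block and leaving out each library. The crossed replicate block was added after the data were seen. The procedure was also run on simulated counts with a common dispersion for all genes, as a check of the code from which no power is read. Sequences and tables were handled in Python 3.11.15 with Biopython 1.88.

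The 4 genes, the lists and the tests were chosen with earlier results of these data known. Genes are named by a rule: the 4 genes, the list genes called by edgeR or DESeq2 and the 3 with the smallest edgeR p in each list, tested genes within 100 kb of *Pygo2*, its 5 most similar genes and the cell type markers. Other list genes were named after their values were seen. The correlation of the deviations of same-numbered replicates from their group means was -0.10 over 13317 genes, and the replicate numbers were not used as pairs.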

Additional observations from a re-analysis of the deposited data

How the results depend on the processing

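The log2 fold changes of *Pygo2*, *Bcl9* and *Bcl9l* kept their direction under all 12 alternatives, and those of *Bcl9* and *Bcl9l*, for which alone a test is given, stayed short of the threshold. They ranged from 1.89 to 2.06 for *Pygo2*, from -0.28 to -0.20 for *Bcl9* (adjusted p from 0.471 to 0.800) and from 0.09 to 0.26 for *Bcl9l* (adjusted p from 0.390 to 0.850), and leaving out each library in turn set all of these ranges for the fold changes. Under the replicate block these values were 1.97, -0.24 and 0.18. *Pygo1* has no fitted value under any alternative that filters, and without a filter its fold change depends on the prior count.

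The counts of all genes called depended on the settings. Against 2 higher and 14 lower genes, DESeq2 gave 170 and 193, no filter 0 and 0, at least 10 counts in every library 4 and 25, and an adjusted p under 0.05 gave 55 and 92. The replicate block gave 0 and 0, and the crossed replicate block 0 and 2. Leaving out each library gave 0 to 19 higher and 0 to 40 lower genes, with 19 and 31 without unloaded replicate 1, 18 and 40 without unloaded replicate 2, and 0 and 0 without either loaded replicate, where the lone library was assumed to vary like the other group. The cause was not tested. Among the 6 lists DESeq2 called 1 Wnt/beta-catenin target gene, *Ccn4*, and every other alternative that kept all libraries called 0. The settings without a filter or with the replicate block called no gene at all, which fixed the outcome there. Apart from DESeq2, the other settings called few genes, so a lack of calls in the lists or the adaptors says little. With 2 libraries per group, differences within the intervals given for the adaptors remain compatible with the data. The smallest difference that could be called was not determined.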
